A study of Mus musculus with 13 samples.

Results

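Gpnmb-positive lipid-associated macrophages of the mouse liver were followed through cholangitis evoked by a diet with 3,5-diethoxycarbonyl-1,4-dihydrocollidine (DDC). The cells were chosen by their own counts: a barcode with at least 1500 unique molecular identifiers (UMIs) was taken when it held at least 2 UMIs of Gpnmb, at least 5 UMIs of C1qa, C1qb and C1qc together and no UMI of Clec4f, Epcam or Cd3e. The rule found 3387 of 95563 cells in 13 libraries. All mice were male C57BL/6J, 6 to 12 weeks old according to the methods, and no allele or agent beside DDC is given for them. The controls (D0) received no DDC, and the other atlas mice received chow with 0.1% DDC for 3, 5, 9, 19 or 25 days (D3, D5, D9, D19, D25). In the recovery library (STOP) 18 days of DDC were followed by 7 days without it. Each atlas time point had 1 library from each of 2 isolation protocols, and a library is named by day and protocol. Protocol A sorted live single cells, Cd45+, Lyve-1+, Pdpn+, Epcam+ and Cd31+ Lyve-1- cells and retinoid-autofluorescent cells. Protocol B sorted live cells of a stellate cell preparation, Cd45+ Itgax+ Cd64- cells, Epcam+ cells and Cd3e+ Lyve-1- cells, so its gate selected against Cd64, a receptor found on macrophages. STOP was made with protocol B, and the library D19 B carries day 18 in 1 of its labels. How many animals a library pooled is not given in the sources used here, so all p-values measure the spread between libraries.

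Lipid-associated macrophages arise in tissues with dying cells or surplus lipid, where the surface receptor TREM2 with its adaptor TYROBP senses lipids and apoptotic material. They take up cholesterol and cell debris, break them down in lysosomes and store or export the lipid. GPNMB is a transmembrane glycoprotein of the endolysosomal system, and its gene is a target of the MiT/TFE transcription factors that also drive lysosomal genes. Kupffer cells are the resident macrophages of the liver and in the mouse carry Clec4f.

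The 13 libraries held 29307190 to 108602421 UMIs, and their cells had a median of 3350 to 12013 UMIs. The Gpnmb-positive cells of the 10 libraries with DDC and at least 20 members had medians of 7741 to 24514 UMIs, and 2 libraries shared at most 1 member barcode. A clone-named locus, CT010467.1, took from 0.383% (STOP) and 0.426% (D25 B) to 23.2% (D3 A) of the members' UMIs. Its UMIs were therefore left out of the total behind each level, which is given as CPM, the UMIs of a gene per 1000000 summed UMIs of a library's member cells. Onset stands for the 4 libraries of D3 and D5, and progression for the 6 libraries of D9, D19 and D25.

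The promoter of the marker gene and those of a lysosomal protease and a lipid droplet gene are shown, because lysosomal promoters commonly hold the CLEAR-type element bound by MiT/TFE factors. Gpnmb lies on chromosome 6, from 49036518 to 49058182 in GRCm38. The windows run from 250 bases before to 50 bases after the annotated start (RefSeq, GRCm38.p6), at chr6:49036268-49036567 (plus strand) for Gpnmb, chr7:142387778-142388077 (minus strand) for Ctsd, which encodes cathepsin D, and chr4:86670010-86670309 (minus strand) for Plin2, which encodes a lipid droplet coat protein. Capitals mark TCACGTG or TCATGTG on either strand, and overlapping matches run together.
Gpnmb: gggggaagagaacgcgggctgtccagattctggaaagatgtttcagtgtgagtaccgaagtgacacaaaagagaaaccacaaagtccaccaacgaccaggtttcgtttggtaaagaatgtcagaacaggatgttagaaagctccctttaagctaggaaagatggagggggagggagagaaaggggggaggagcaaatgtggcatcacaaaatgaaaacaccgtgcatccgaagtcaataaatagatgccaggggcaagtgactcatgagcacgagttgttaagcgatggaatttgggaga
Ctsd: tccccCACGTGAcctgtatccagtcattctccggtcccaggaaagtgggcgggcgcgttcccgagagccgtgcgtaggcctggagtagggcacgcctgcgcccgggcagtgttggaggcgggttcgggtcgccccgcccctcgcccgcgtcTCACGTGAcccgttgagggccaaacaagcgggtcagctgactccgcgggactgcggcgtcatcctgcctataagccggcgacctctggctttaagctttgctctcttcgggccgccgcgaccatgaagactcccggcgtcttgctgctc
Plin2: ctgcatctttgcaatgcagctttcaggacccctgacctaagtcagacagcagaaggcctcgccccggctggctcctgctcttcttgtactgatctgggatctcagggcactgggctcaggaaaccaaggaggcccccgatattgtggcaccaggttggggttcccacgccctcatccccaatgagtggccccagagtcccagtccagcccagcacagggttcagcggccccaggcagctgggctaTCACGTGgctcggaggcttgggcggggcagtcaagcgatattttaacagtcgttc
The letters were found at 3 places in the Ctsd window, counting both strands, at 1 place in Plin2 and at 0 in Gpnmb. Of 42 genes on the lysosome list, which as fixed also holds Plin2, 32 had a promoter in the table, and 17 of these (53.1%) held a match. The share was 8.40% of all 27025 genes with a promoter. Of 14 matched genes of the lipid-associated programme 2 held a match (14.3%). These matches describe the sequence and are not mapped binding sites.

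Gpnmb-positive macrophages were scarce in the untreated liver and common in every DDC library. Their share of all cells with at least 5 C1q UMIs was 0.923% in D0 A (6 cells, exact 95% interval 0.340 to 2.00%) and 2.22% in D0 B (7 cells, 0.898 to 4.52%). At onset it was 15.9% in D3 A, 15% in D5 A, 49.0% in D3 B and 23.3% in D5 B. At progression it was 17.6%, 30.0% and 34.1% with protocol A and 39.4%, 46.3% and 44.2% with protocol B on D9, D19 and D25. All 10 DDC libraries lay above both controls, by a mean of 29.9 percentage points over the protocols (exact permutation of libraries inside each protocol, two-sided, p = 0.0278, which is the smallest value its 36 arrangements allow, and 0.0556 after Benjamini-Hochberg adjustment over the 2 share comparisons). With protocol A the 3 progression libraries lay above both onset libraries, and with protocol B the share of D3 B exceeded all others. Both orders depended on the count. Among C1q-positive cells without Clec4f UMIs, D9 A (29.8%) lay below D3 A (45.3%) and D5 A (32.6%), while D3 B stayed highest (60.0%). After these cells were thinned to equal depth, the Gpnmb-positive share of D3 B was 40.0%, below D19 B (45.3%). It stayed above D5 B (23.1%), D9 B (34.6%) and D25 B (37.8%). With protocol A all progression libraries then lay above both onset libraries (D9 A 26.7%, D3 A 26.2%, D5 A 21.5%). Among all C1q-positive cells, without thinning, the progression share exceeded that of onset by 9.48 points, 11.8 with protocol A and 7.16 with protocol B. This was within the spread of libraries (p = 0.15, the same exact permutation test with 100 arrangements, adjusted p = 0.15). Over the 10 exact permutation tests that left out 1 library the difference ran from 3.05 points (p = 0.575, without D5 B) to 15.9 points (p = 0.025, without D3 B). The share in STOP was 18.8% (99 cells, 15.5 to 22.3%), below all 3 progression libraries of protocol B and above the 2.22% of D0 B. A share is set in part by the sort, which differed between protocols, and the intervals cover counting error only. The rule itself left out cells with UMIs of both Gpnmb and Clec4f, which numbered 10 to 308 in a DDC library, with 308 in D19 A.

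**Figure D1:**
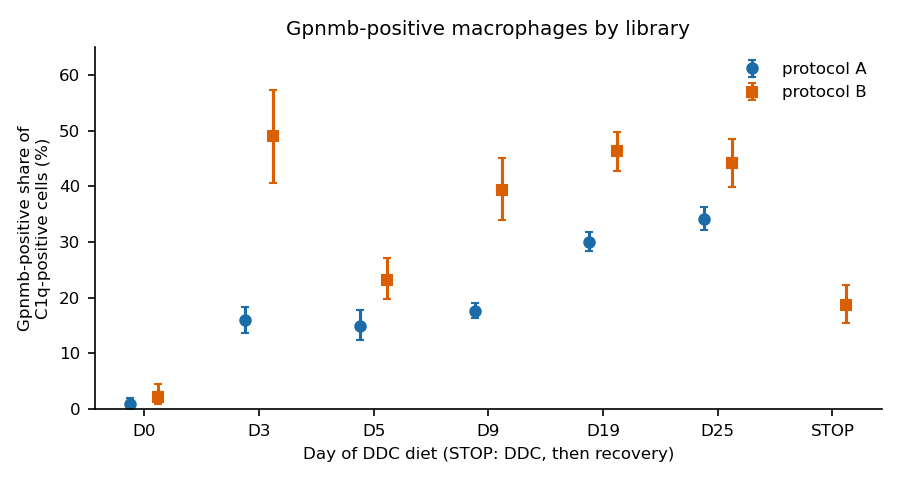
Share of Gpnmb-positive macrophages among cells with at least 5 C1q UMIs (y axis, percent) by library (x axis, day of DDC diet and STOP). Circles are protocol A, squares protocol B, and bars are exact binomial 95% intervals. All 10 DDC libraries lie between 15 and 49.0%, above both D0 libraries.

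UMIs of the rule's genes were also counted in lymphocytes, which should lack them. Of 6637 T cells of the DDC libraries (at least 2 Cd3e UMIs), 122 (1.84%) held at least 2 UMIs of Gpnmb, and 96 of these (1.45% of the T cells) also held at least 5 UMIs of C1q, at library medians of 3261 to 8155 UMIs per cell. Of 384 B cells (at least 2 Cd79a UMIs), 2.34% met both. In D0 0 of 2449 T and B cells met both, which allows a share of up to 0.122%. Free RNA and joint droplets of a lymphocyte and a macrophage were not told apart. Because these shares are taken over lymphocytes, they are not of the same kind as the shares of C1q-positive cells. The 6 cells of D0 A also carried Dcn, a stellate cell and fibroblast gene, at 2888 CPM, while D0 B had 0. With fewer than 20 members in either D0 library, gene levels of D0 were not compared with the DDC libraries.

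The label was checked against macrophage genes that the rule did not read. After each member was thinned to 1500 UMIs, Trem2 was found in 55.6 to 84.7% of cells in the 11 libraries with at least 20 members and Csf1r, the receptor of macrophage growth factor, in 49.5 to 65.5%. Adgre1, which encodes F4/80, was found in 21.1 to 36.4% after thinning and in 71.0 to 91.1% of the unthinned cells. Timd4, a gene of resident Kupffer cells, was found in 0 to 1.16% after thinning, and its summed level was at most 4.56 CPM at onset and progression. UMIs of other lineages were present in many members: in the DDC libraries 27.0% (D25 A) to 58.0% (D19 B) of them, and in STOP 37.4%, held no UMI of 13 genes of other lineages. The 12 endothelial markers summed to 971 to 5157 CPM at onset and 922 to 3195 CPM at progression. In C1q-positive cells without UMIs of Gpnmb or Clec4f they summed to 1757 to 14171 CPM, and their part in the results was not tested. This list shares Fcgr2b with the list of complement and Fc receptor genes, and Cdh5 and Clec4g with the Kupffer list. Its sums may therefore hold macrophage RNA too. The 6 erythroid genes reached 1392 CPM in the progression libraries and at most 1.81 CPM at onset, with Hbb-bs at 808 CPM in D19 A.

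Within each DDC library the members were set beside 2 other groups of C1q-positive cells: Gpnmb-zero cells without Clec4f, and a Kupffer gate with at least 2 UMIs of Clec4f and no Gpnmb. Before thinning, Csf1r was found in 38.8% (D19 A) to 90.3% (D5 B) of the Gpnmb-zero cells and in 90.5 to 98.6% of members. For Adgre1 the ranges were 24.3% (D19 A) to 66.7% (D3 B) and 71.0 to 91.1%. Of 12 endothelial markers 9 were lower in members than in Gpnmb-zero cells in all 10 libraries (median log2 ratio -1.32), beside 8.81% of all genes. Of 12 macrophage markers 5 were higher. The part of other cell types in this group was not tested. Because Gpnmb itself divided the cells, these differences describe the groups and carry no test. Most listed genes of the lipid-associated programme lay with Gpnmb. Of 20 genes listed for the programme, 14 were higher in members than in Gpnmb-zero cells in all 10 libraries, beside 6.02% of 10278 genes, and the median log2 ratio over the 20 was 1.09. Fabp5, a fatty acid carrier, had 1796 ± 790 CPM in members and 182 ± 59.7 CPM in Gpnmb-zero cells (SD, n = 10 libraries). Its log2 ratio within a library ran from 1.97 to 4.51. Spp1, which encodes osteopontin, had 2973 ± 2308 against 721 ± 810 CPM and Lpl, a lipase that releases fatty acids from triglycerides, 1783 ± 370 against 600.4 ± 176 CPM. Trem2 had 1111 ± 250 against 422 ± 137 CPM and was higher in members in 10 of 10 libraries. Cd9, a tetraspanin often used to mark such cells, differed little, with 700.4 ± 158 against 559.6 ± 148 CPM. Cd9, Cd36, Itgax, Mmp12, Fabp4 and Ctsl were not higher in members in all 10 libraries.

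Lysosomal genes and those of heme and iron handling also lay with Gpnmb. Of 42 listed lysosome genes 32 were higher in members in all 10 libraries and 0 were lower in all. The cathepsin genes Ctsb (6684 ± 754 against 2308 ± 524 CPM) and Ctsd (166 ± 70.1 against 42.7 ± 19.2 CPM) were among them. Atp6v0d2, a subunit of the proton pump that acidifies lysosomes, had 149.6 ± 106 CPM in members and 6.18 ± 3.88 CPM in Gpnmb-zero cells, a median log2 ratio of 4.30. Mitf, which encodes a MiT/TFE factor, had a median log2 ratio of 0.77 and was higher in members in 10 of 10 libraries, while Tfec, another gene of that family, was higher in 5 of 10 (median log2 ratio -0.03). Of 20 heme and iron genes 13 were higher in members in all 10 libraries, with Hmox1, which breaks down heme, at 1327 ± 279 against 484 ± 131 CPM. The same was so for 11 of 23 genes of cholesterol and lipid handling, 5 of 10 TREM2 signalling genes and 3 of 5 osteoclast genes, lists that share members with the others. MHC class II genes lay on the other side, with 0 of 9 higher and 5 of 9 lower in all 10 libraries. H2-Ab1, a chain of MHC class II, had 3154 ± 1498 in members and 6205 ± 2925 CPM in Gpnmb-zero cells, and Il1b, an inflammatory cytokine, 614 ± 318 against 1710 ± 674 CPM, both lower in 10 of 10 libraries, beside 8.81% of all genes. The cytokine list as a whole had 4 of 18 genes higher and 2 lower in all 10 libraries, and the chemokine list 3 of 19 higher and 1 lower. Ccl17, a chemokine for T cells, had 7.54 ± 8.89 against 123 ± 120 CPM. Dendritic cell markers lay on the same side as MHC class II, with 5 of 11 lower in all 10 libraries, a median log2 ratio of -1.15 and sums of 65.8 to 379 CPM in members and 215 to 688 CPM in Gpnmb-zero cells, and their part in these differences was not tested.

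The Gpnmb-zero group of protocol A had median C1q counts of 9 to 25 UMIs per cell against 46 to 165 in members, so both groups were also taken with at least 20 C1q UMIs, a threshold chosen after these counts were seen. With it 16 of the 20 genes of the programme and 25 of the 42 lysosome genes were higher in members in all 10 libraries, beside 4.33% of all genes. Other lists held fewer such genes than before, with 10 of 20 for heme and iron, 8 of 23 for cholesterol and lipid handling and 2 of 10 for TREM2 signalling. Mitf was then higher in 9 of 10 libraries (median log2 ratio 0.26). MHC class II genes were lower in all 10 libraries for 7 of 9 (median log2 ratio -0.92) and dendritic cell markers for 1 of 11 (-0.45). Endothelial markers were lower in all 10 for 2 of 12 (-0.21), and macrophage markers higher in all 10 for 4 of 12. Of 13 monocyte genes 0 were higher and 2 lower in all 10 (-0.58), and without this threshold 0 and 0 (-0.48). Ccr2, a receptor of recruited monocytes, was lower in members in 10 of 10 libraries with it, at 248 ± 113 against 605 ± 228 CPM. Among genes with a mean of at least 50 CPM in the group with the higher level, the largest median log2 ratios were those of Atp6v0d2 (4.45), Fabp5 (3.12), Syngr1 (2.41), Spp1 (1.75), Ctsd (1.62) and Gdf15 (1.61), a stress-induced cytokine. In the other direction they were those of Ccl17 (-4.04), Mgl2 (-2.93), a lectin of dendritic cells and macrophages, and Il1b (-1.78).

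Against the Kupffer gate, compared in the 9 libraries with at least 20 such cells, the members held less of the resident programme. Of 13 measured Kupffer genes 11 were lower in all 9 libraries, beside 17.3% of all genes, while 15 of the 20 genes of the lipid-associated programme were higher in all 9, beside 7.49%. Marco, a scavenger receptor, had 23.1 ± 29.5 CPM in members and 2574 ± 1739 CPM in the Kupffer gate (SD, n = 9), and Timd4 1.95 ± 1.45 against 334 ± 67.9 CPM. Spp1 had 2302 ± 956 against 55.7 ± 42.4 CPM. Ccr2, which was lower in members than in Gpnmb-zero cells, had 228 ± 90.4 against 61.3 ± 61.6 CPM here. Of 13 monocyte genes 8 were higher and 2 lower in all 9 libraries. Not all of the lipid programme separated the groups, since 5 of its 20 genes, Lpl, Cd36, Mmp12, Fabp4 and Ctsl, were not higher in all 9 libraries, and Lpl had 1731 ± 352 CPM in members and 2228 ± 450 CPM in the Kupffer gate. The other lists that lay with Gpnmb were divided here. Of 42 lysosome genes 16 were higher and 9 lower in all 9 libraries, of 20 heme and iron genes 4 and 5, of 23 genes of cholesterol and lipid handling 4 and 5, and of 10 TREM2 signalling genes 2 and 3. Hmox1 had 1342 ± 292 CPM in members against 2394 ± 958 CPM in the Kupffer gate.

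**Figure D2:**
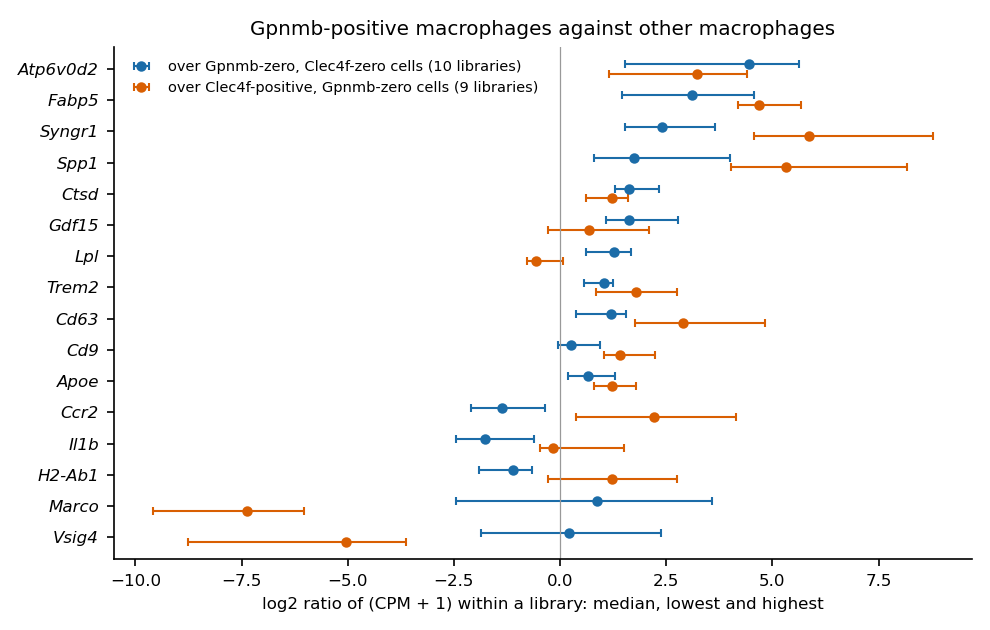
Median, lowest and highest log2 ratio (x axis, CPM + 1) of Gpnmb-positive macrophages over other C1q-positive cells of the same library for 16 genes (y axis). Blue is the ratio over Gpnmb-zero, Clec4f-zero cells with at least 20 C1q UMIs in 10 libraries, orange over Clec4f-positive, Gpnmb-zero cells in 9 libraries, and Atp6v0d2, Fabp5, Syngr1 and Spp1 lie above 0 in every library of both.

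The cells just inside and just outside the Gpnmb threshold are given with those far from it. Pooled over the 10 DDC libraries, Trem2 had 423 CPM in the 3429 cells with 0 Gpnmb UMIs, 627 CPM in 746 cells with 1 and 807 CPM in 374 cells with 2. All 3275 members of these libraries together had 1196 CPM. Spp1 had 538, 614, 1068 and 3082 CPM in the same order, and Cd74, the MHC class II chaperone, 11283, 9161, 8869 and 5902 CPM. Cd9 had 554, 498, 520.4 and 727 CPM and the monocyte gene Ly6c2 20.1, 22.4, 11.1 and 14.8 CPM, so that not every gene was ordered by its Gpnmb count. The libraries gave unequal parts of these groups, as D9 A with 967 of the 3429 Gpnmb-zero cells and 517 of the 3275 members. The order within each library was not examined.

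Expression of 2 secreted products, Spp1 and Mmp12, taken in each cell as a share of all its UMIs, was concentrated in few members. The tenth of cells with the highest Spp1 share held 52.3 to 71.4% of the sum of these shares over a library's members. For Mmp12, which encodes macrophage elastase, it was 55.6 to 92.9%. For Trem2 the range was 20.2 to 26.7% and for Apoe, whose product is also secreted, 19.7 to 31.5%.

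The change from onset to progression in the members' own expression was then tested on UMIs summed per library. Of 10278 genes tested, 56 were called at an adjusted p under 0.05 (0.545%), 34 higher (0.331%) and 22 lower (0.214%) at progression (edgeR quasi-likelihood test with protocol as a term, Benjamini-Hochberg adjustment). The largest shifts with the firmest calls were those of the lysosomal proton pump subunit Atp6v0d2, the lipid droplet gene Hilpda and the complement receptor gene Vsig4. All 6 progression libraries lay above all 4 onset libraries for 27 of the 34, against 0.973% of all genes tested, and below them for 9 of the 22, against 1.88%. The 7 genes of the rule were left out of the counts. The number of calls was 340 with DESeq2 and 2 with no protocol term, and between 3 (without D3 A) and 224 (without D5 B) when 1 library was left out, so the genes are given with their values in every library.

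Atp6v0d2 (chromosome 4, 19876838 to 19922566) had 27.1, 67.0, 53.6 and 47.8 CPM in D3 A, D3 B, D5 A and D5 B. At progression it had 95.8 and 198 CPM in D9 A and D9 B, 198 and 332 in D19 A and D19 B, and 204 and 273 in D25 A and D25 B. All 6 progression libraries lay above the 4 of onset. The log2 fold change was 2.27 (SE 0.28, adjusted p = 0.00797, edgeR).

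Hilpda (chromosome 6, 29272488 to 29275449) encodes an inhibitor of the triglyceride lipase ATGL on lipid droplets. It had 33.0, 30.9, 54.7 and 43.2 CPM at onset in the same order, and 135, 110, 241, 222, 203 and 196 CPM from D9 A to D25 B. The stages did not overlap, and both protocols gave close values on each day. Its log2 fold change was 2.34 (SE 0.28, adjusted p = 0.00797, edgeR).

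Vsig4 (chromosome X, 96247201 to 96293438) encodes a receptor for complement C3b and is high in Kupffer cells. It had 3.61, 13.2, 12.0 and 13.1 CPM at onset and 63.2, 44.7, 129, 139, 134 and 81.6 CPM at progression. Again the stages did not overlap, and the log2 fold change was 3.42 (SE 0.44, adjusted p = 0.00797, edgeR). After thinning to 1500 UMIs, Vsig4 was found in 0 to 1.63% of members at onset and in 3.81 to 7.55% at progression. The Kupffer gate held 2072 ± 403 CPM of Vsig4 (SD, n = 9 libraries), and the summed level of 16 Kupffer genes in members was 1523 to 2525 CPM at onset and 1105 to 3247 CPM at progression. Of 13 tested Kupffer genes, Vsig4 among them, 9 had a positive log2 change, with a list median of 0.51. At an unadjusted p under 0.05 (edgeR) 5 were higher and 2 lower, beside 15.8% of all genes in either direction. The part of Kupffer cell RNA in the rise of Vsig4 was not tested. The Vsig4 call was lost (log2 3.46, adjusted p = 0.0563, edgeR) in cells with no UMI of 13 genes of other lineages, with adjusted p of up to 0.160 over all alternatives. Atp6v0d2, Hilpda and Vsig4 were called in each of the 10 fits that left out 1 library, and none of the 3 was called in protocol A alone, at log2 changes of 2.22, 2.32 and 4.03, or with D9 put with onset, at 1.77, 1.79 and 2.32. Atp6v0d2 was also not called with no protocol term (log2 2.29, adjusted p = 0.0593, edgeR), nor Hilpda (log2 2.34, adjusted p = 0.117) and Vsig4 (log2 2.84, adjusted p = 0.160) in protocol B alone. The other 20 called genes named here held their call in 2 to 8 of these 10 fits, each being lost without D3 A and without D3 B. All 20 were also not called with no protocol term and in protocol A alone. In protocol B alone 19 of them were not called, and with D9 put with onset 18.

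**Figure D3:**
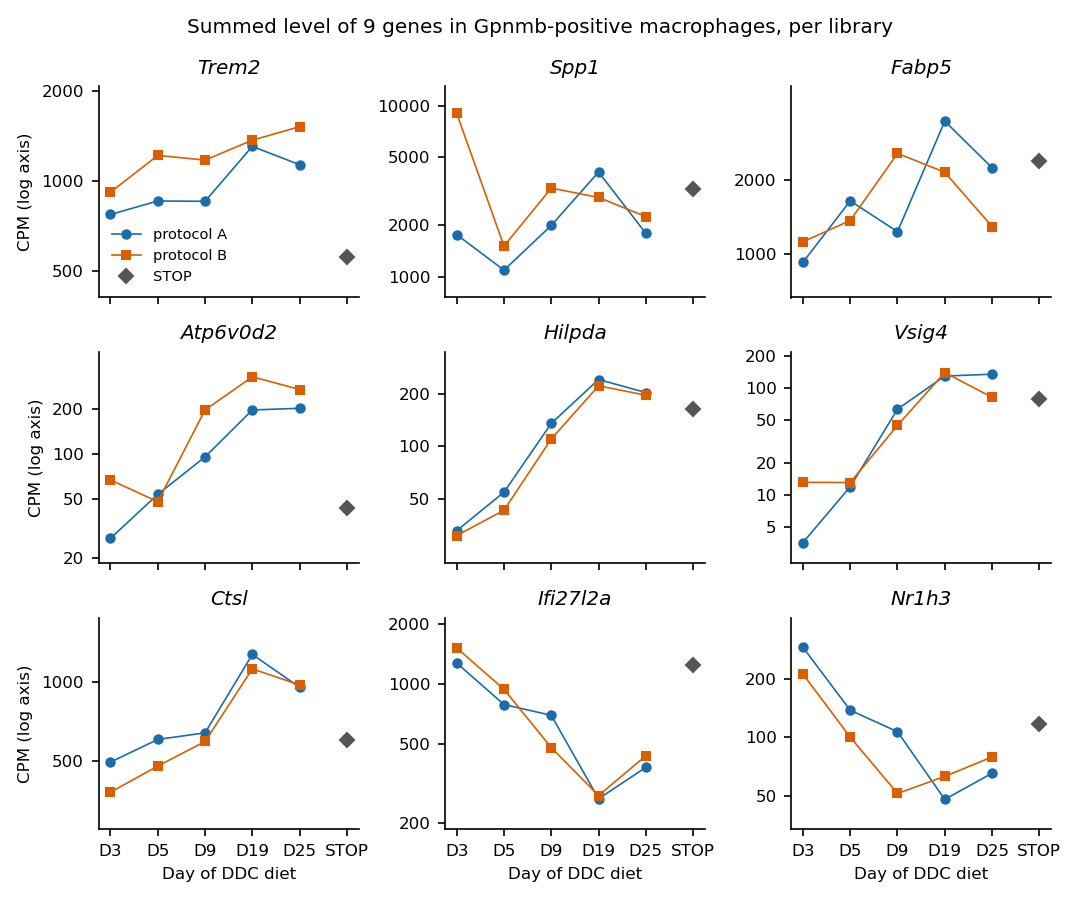
Level of 9 genes in Gpnmb-positive macrophages (y axis, CPM on a log axis) by day of DDC diet (x axis) for protocol A (circles), protocol B (squares) and STOP (diamond), 1 value per library. Atp6v0d2, Hilpda and Vsig4 lie higher in all 6 libraries of D9 to D25 than in the 4 of D3 and D5, Ifi27l2a lies lower in all 6, and Spp1 has its highest value, 9020 CPM, in D3 B.

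Of the lipid-associated programme itself, 0 of 20 tested genes were called between the stages (edgeR), while 11 had an unadjusted p under 0.05, all higher. Of all 10278 genes 15.8% had an unadjusted p under 0.05, 7.81% with a higher and 7.94% with a lower level at progression, and the counts of the lists stand beside these shares. The median log2 change over the list was 0.48, beside 0.01 over all genes tested. Plin2 had 327 to 506 CPM at onset and 468 to 811 CPM at progression (log2 0.88, adjusted p = 0.0557, edgeR), and Ctsl, which encodes cathepsin L, 380 to 603 and 592 to 1268 CPM (log2 1.06, adjusted p = 0.0689, edgeR). Mmp12 had 250.3 to 750.1 CPM at onset and 763 to 2074 CPM at progression, with no overlap (log2 1.38, adjusted p = 0.0958, edgeR). Fabp5 had 925 to 1641 and 1231 to 3450 CPM, and Lpl 1387 to 2251 and 1344 to 2277 CPM. Spp1 had 1764, 9020, 1094 and 1512 CPM at onset and 1795 to 4096 CPM at progression, so that the stages overlapped and D3 B exceeded every other library (log2 0.07, SE 0.47, adjusted p = 0.963, edgeR).

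TREM2 signalling genes gave 0 calls among 10 tested (edgeR), with 2 at an unadjusted p under 0.05, both higher, beside the 15.8% of all genes. Trem2 (chromosome 17, 48346401 to 48352276) had 773, 917, 857 and 1216 CPM at onset and 855, 1174, 1304, 1367, 1133 and 1517 CPM at progression. In each protocol D3 was lowest, yet the stages overlapped (log2 0.51, SE 0.19, adjusted p = 0.198, edgeR). Its adaptor gene Tyrobp had 2567 to 3813 and 2854 to 4079 CPM.

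Of 42 lysosome genes 1 was called, Atp6v0d2, and 13 had an unadjusted p under 0.05, all higher, with a list median of 0.24. Npc1, which exports cholesterol from lysosomes, had 18.5 to 41.0 CPM at onset and 43.3 to 69.5 CPM at progression (log2 1.08, adjusted p = 0.0557, edgeR). Among the 8 regulators of lysosomal genes 0 were called (edgeR) and 3 had an unadjusted p under 0.05. Rragc, a GTPase of nutrient sensing at the lysosome, had 91.1 to 118 and 124 to 146 CPM (log2 0.51, adjusted p = 0.0864, edgeR).

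Among 23 tested genes of cholesterol and lipid handling Hilpda alone was called, and 10 genes had an unadjusted p under 0.05 and a higher level, 2 a lower one. Soat1, which esterifies cholesterol for storage, had 286 to 358 CPM at onset and 383 to 546 CPM at progression (log2 0.54, adjusted p = 0.0720, edgeR). Nr1h3, which encodes the oxysterol receptor LXR alpha, had 291 and 212 CPM in D3 A and D3 B, 138 and 100.2 CPM in D5 A and D5 B, and 47.9 to 107 CPM at progression (log2 -1.29, adjusted p = 0.0539, edgeR). Beyond the lists, Slc27a1, a fatty acid transporter, rose from 15.5 to 29.6 CPM at onset to 41.6 to 50.6 CPM at progression (log2 1.16, SE 0.17, adjusted p = 0.0244, edgeR), and with D9 put with onset the change was 0.74, not called. Fabp7, a brain-type fatty acid carrier, rose from 29.4 to 52.4 CPM to 68.9 to 168 CPM (log2 1.67, SE 0.31, adjusted p = 0.0399, edgeR).

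Complement, matrix and chemokine genes gave further calls, all higher at progression. Complement and Fc receptor genes had 2 of 14 called, Vsig4 and C4b, a complement component with 0.904 to 1.72 CPM at onset and 4.39 to 13.2 CPM at progression (log2 2.47, adjusted p = 0.0382, edgeR). The matrix list had 2 of 20 called, Fn1 and Adam8. Fn1, which encodes fibronectin, had 49.2, 73.3, 71.3 and 75.5 CPM at onset and 164, 304, 293, 96.8, 194 and 108 CPM at progression (log2 1.62, SE 0.32, adjusted p = 0.0429, edgeR). With D9 put with onset the change of Fn1 was 0.61 (adjusted p = 0.584) and that of C4b 0.96 (adjusted p = 0.383, edgeR), and neither was called. Adam8, a membrane protease, had 52.7 to 122 and 133 to 244 CPM (log2 1.16, adjusted p = 0.0401, edgeR). The chemokine list had 2 of 19 called. Cxcl14 rose from 55.3 to 78.5 CPM to 85.2 to 183 CPM (log2 1.26, adjusted p = 0.0410, edgeR). Ccl8, a monocyte and T cell attractant, had 0 UMIs in all 4 onset libraries and 537 UMIs at progression, with 8.95, 27.1, 3.66, 34.9, 1.52 and 50.9 CPM from D9 A to D25 B. Against a floor of 3 counts over the 7011120 onset UMIs its pooled level was at least 36.6-fold higher, and with D9 put with onset Ccl8 was not called (adjusted p = 0.507, edgeR). Slc6a8, the creatine transporter (log2 1.18, adjusted p = 0.0244), and Gpx3, a secreted glutathione peroxidase (log2 1.23, adjusted p = 0.0418), completed the 10 called genes of largest rise whose mean log2 CPM reached 5 (edgeR). Lcn2 was called too (log2 3.33, adjusted p = 0.0488, edgeR; 1.21 and not called with D9 put with onset, 1.61 and not called in protocol B alone), with 0 to 4.63 CPM at onset and 4.79 to 21.1 CPM at progression, and is a neutrophil gene. S100a8, another neutrophil gene, had 7.68 to 135 and 54.7 to 275 CPM, and its part in the Lcn2 value was not tested. Stellate cell and fibroblast markers lay mostly higher at progression, with 0 of 8 called (edgeR), 5 with an unadjusted p under 0.05, all higher, a median log2 change of 3.08, and 12 markers summing to 76.2 to 124 CPM at onset and 96.8 to 720 CPM at progression. Of 4 tested cholangiocyte markers 0 were called (edgeR), 3 had an unadjusted p under 0.05 and a higher level, and the list summed to 18.2 to 60.1 and 37.3 to 228 CPM. The part of RNA from these cells in the rises of complement, matrix and chemokine genes was not tested.

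Kupffer and monocyte genes other than those named were not called. Marco had 3.99 to 6.94 CPM at onset and 3.09 to 90.3 CPM at progression, and Cd163, the hemoglobin receptor, 0.452 to 2.31 and 1.19 to 18.7 CPM, each highest in D19 A. Ccr2 had 414, 448, 241 and 298 CPM at onset and 239, 239, 115, 206, 157 and 142 CPM at progression (log2 -0.83, adjusted p = 0.0740, edgeR). The monocyte list as a whole did not move in 1 direction. Of its 13 tested genes 6 had a positive and 7 a negative log2 change, with a median of -0.02. At an unadjusted p under 0.05 (edgeR) 1 was higher and 4 lower. The 1 called was Fn1, which is also on this list and rose. MHC class II genes gave 0 calls among 9 tested (edgeR). All 9 had a negative log2 change, 2 with an unadjusted p under 0.05, and the list median was -0.60. The 11 dendritic cell markers moved with them, 10 with a negative log2 change, 4 with an unadjusted p under 0.05, all lower, a median of -0.93, and sums of 175 to 379 CPM at onset and 65.8 to 276 CPM at progression, and their part was not tested. H2-Ab1 had 573 CPM in D19 A and 2462 CPM in D19 B, and the log2 ratio of its mean CPM at progression over that at onset was -1.43 with protocol A and -0.08 with protocol B, where the edgeR fit of protocol B alone gave 0.0042.

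Of the 22 genes that fell, the 9 whose mean log2 CPM reached 5 are named, with 1 dendritic cell marker. Ifi27l2a, an interferon-inducible gene, had 1269, 1511, 787 and 937 CPM at onset and 695, 479, 266, 276, 381 and 436 CPM at progression, with no overlap (log2 -1.30, SE 0.25, adjusted p = 0.0405, edgeR). It was the 1 gene called among 18 tested type I interferon genes, all 18 of which had a negative log2 change, 10 with an unadjusted p under 0.05, and a list median of -0.49. Oasl2 had 45.5 to 88.1 CPM at onset and 26.1 to 54.3 CPM at progression (adjusted p = 0.0618, edgeR) and Irf7, the regulator of interferon genes, 65.5 to 149 and 35.1 to 72.2 CPM (adjusted p = 0.101, edgeR). Beyond the list, Ifi209 fell from 50.9 to 97.9 CPM to 25.98 to 38.5 CPM (log2 -0.97, adjusted p = 0.0244, edgeR), Mndal by 0.70 on the log2 scale (adjusted p = 0.0405, edgeR) and Ms4a4c from 47.9 to 75.9 CPM to 13.4 to 34.2 CPM (log2 -1.43, adjusted p = 0.0382, edgeR). Ifi209, Mndal and Ms4a4c belong to families of close neighbours whose reads the counting could have split, so their separate values are uncertain. Pmaip1, which encodes the death-promoting protein NOXA, had 82.7 to 112 and 32.0 to 62.9 CPM (log2 -0.84, adjusted p = 0.0401, edgeR).

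Hspg2, Rasip1, Nr2f2 and Ets1, which are expressed in endothelium, were the other 4 of these 9 genes. Hspg2 had 189 and 123 CPM in D3 A and D5 A but 43.0 and 18.5 CPM in D3 B and D5 B, so that the protocols differed more than the stages. Its log2 change was -1.35 (adjusted p = 0.0401, edgeR). The 12 endothelial markers, of which 0 were called (edgeR), had a median log2 change of -0.78 and 8 with an unadjusted p under 0.05, all lower. They moved with these 4 genes, and their part in the fall was not tested. Zbtb46, a dendritic cell factor also known from endothelium, was the 1 gene called among 11 dendritic cell markers, with 9.25 to 34.8 CPM at onset and 6.18 to 13.6 CPM at progression (log2 -1.23, adjusted p = 0.0401, edgeR, and -0.66 and not called in protocol B alone).

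**Figure D4:**
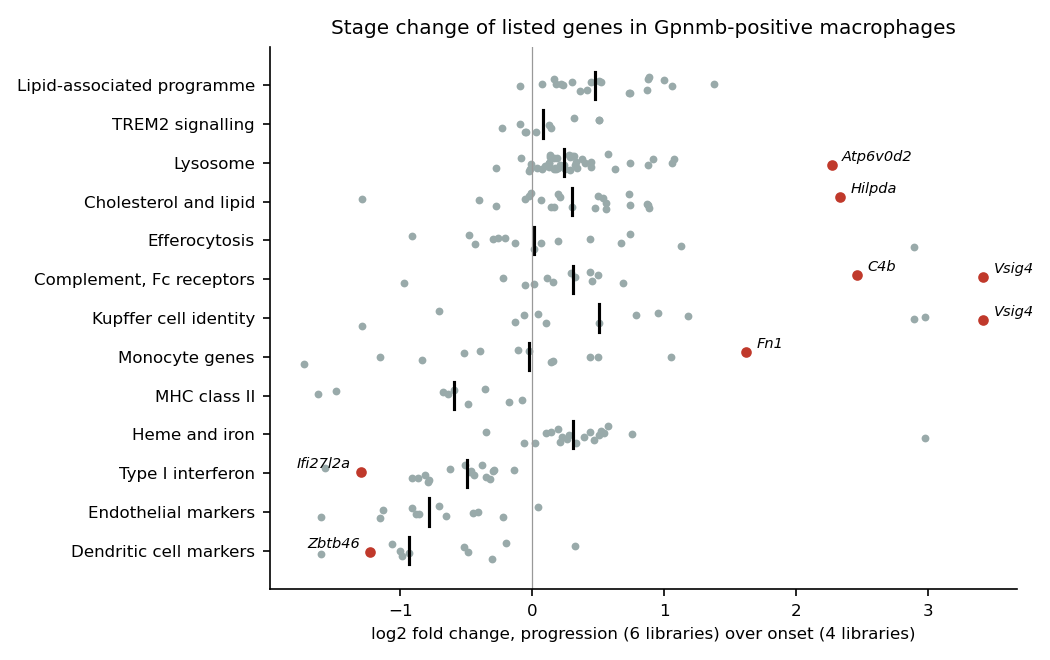
Log2 fold change of progression over onset (x axis) for each tested gene of 13 lists (y axis), with red points for genes called at an adjusted p under 0.05, grey points for the rest and black bars for list medians. The lipid-associated programme lies mostly above 0 (median 0.48) with 0 calls, and all 18 type I interferon genes lie below 0.

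Several lists gave no calls. Heme and iron genes had 0 of 20 called and 7 with an unadjusted p under 0.05, all higher. Efferocytosis genes had 0 of 15, cytokines and growth factors 0 of 18, NRF2 targets 0 of 19, glycolysis and hypoxia genes 0 of 19, oxidative phosphorylation 0 of 22 and cell cycle genes 0 of 19 called (edgeR). Of the efferocytosis genes 8 had an unadjusted p under 0.05, 5 higher and 3 lower, and of the cytokines and growth factors 7 had one, 5 higher and 2 lower. The NRF2 and the glycolysis list had 3 such genes each and the cell cycle list 1, all higher, and oxidative phosphorylation had 0, beside the 15.8% of all genes. Arg1, which encodes arginase, had 4.58 to 28.5 CPM at onset and 16.6 to 252 CPM at progression (log2 2.90, adjusted p = 0.0571, edgeR). Of 20 immediate early and heat shock genes 0 were called, and 9 had an unadjusted p under 0.05, 8 lower and 1 higher. Hspa1a had 59.4 to 339 CPM at onset and 11.4 to 250 CPM at progression (adjusted p = 0.202, edgeR). These genes also respond to tissue dissociation, and their part in other results was not tested.

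Whether the stage change was particular to the members was tested against the stage change in Gpnmb-zero cells of the same libraries. Before thinning, Csf1r was found in 38.8% (D19 A) to 90.3% (D5 B) of these cells, and after thinning in 23.3% (D19 A) to 68.4% (D19 B). Of 10572 genes 0 were called (0.0%, edgeR with library as a block), 426 had an unadjusted p under 0.05, and DESeq2 also called 0. On simulated data this edgeR fit found 37% of genes given a log2 change of 1, so it can miss differences of that size. Vsig4 changed by 1.93 more on the log2 scale in members (SE 0.56, unadjusted p = 0.00395), Hilpda by 1.14 more (SE 0.40, unadjusted p = 0.0127) and Atp6v0d2 by 1.17 more (SE 0.61, unadjusted p = 0.0757), each with an adjusted p of 0.9996 (edgeR). For Ifi27l2a the difference was 0.05 (SE 0.26).

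After 7 days without DDC the 99 members of STOP held less of the lipid-associated and lysosomal programme than the 364 members of D19 B. With 1 library on each side there is no test, and exact Poisson 95% intervals of the counts are given, which cover counting error only. Of 732 genes with at least 200 CPM in either library, 299 (40.8%) had separate intervals with STOP higher and 219 (29.9%) with STOP lower. Of the 20 genes of the programme 15 had separate intervals with STOP lower and 3 with STOP higher (median log2 ratio -0.74), and of 42 lysosome genes 27 lay lower and 6 higher. Other lists lay lower too: of 15 efferocytosis genes 12 were lower and 1 higher, and of 20 heme and iron genes 12 and 0. Of 12 macrophage markers other than C1q, 9 were lower and 1 higher. Lists were counted over genes with at least 10 UMIs in both libraries together, of which all 10257 had 14.1% with STOP higher and 8.89% lower. STOP also lay below all 3 progression libraries of protocol B for 13 of the 20 genes of the programme and 25 of the 42 lysosome genes, beside 23.5% of these genes. The same held for 12 of the 15 efferocytosis genes, 13 of the 20 heme and iron genes and 9 of the 12 macrophage markers. Trem2 had 558 CPM (523 to 596) in STOP and 1367 CPM (1335 to 1399.9) in D19 B, and the 3 progression libraries of protocol B had 1174 to 1517 CPM. Apoe, the lipid carrier, had 22270 CPM (22044 to 22499) against 52720 CPM (52519 to 52922). Among genes with at least 200 CPM in either library, the 5 largest log2 ratios downwards were those of Lars2 (-3.07), a mitochondrial tRNA synthetase gene, Atp6v0d2 (-2.93), Ctsd (-2.21), Syngr1 (-2.11) and Lpl (-1.78). Atp6v0d2 stood at 43.5 CPM (34.0 to 54.8) against 332 CPM (316 to 348), within the 27.1 to 67.0 CPM of onset. Lars2 stood at 1460 CPM in D3 A, where CT010467.1 took most UMIs, and at 135 CPM in D25 B, where it took few. Gpnmb, by which the cells were chosen, had 602 against 2876 CPM.

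Not all of the programme was lower after recovery. Spp1 had 3266 CPM (3180 to 3355) against 2909 CPM (2862 to 2956), Fabp5 2385 against 2143 CPM and Plin2 1110 CPM (1060 to 1162) against 551 CPM (530 to 572). Vsig4 stood at 78.0 CPM (65.1 to 92.6), below D19 B and above the 3.61 to 13.2 CPM of onset. Ccl8 had 24.8 CPM, within the range of progression.

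Monocyte, antigen presentation, interferon and cell cycle genes were higher in STOP than in D19 B, but not all of them lay above the other progression libraries of protocol B. Of 11 MHC class II genes 9, and 13 of 18 type I interferon genes, 9 of 14 monocyte genes and 16 of 20 cell cycle genes had separate intervals with STOP higher, beside the 14.1% of all genes with at least 10 UMIs. STOP lay above all 3 progression libraries of protocol B for 7, 12, 10 and 10 genes of these lists in the same order, beside 36.9% of all these genes. Other lists lay higher too. Of 20 glycolysis and hypoxia genes 13 were higher and 0 lower, with 15 above all 3 libraries. Of 19 chemokine genes 12 were higher and 3 lower, with 11 above all 3. The MHC class II genes summed to 28933 CPM in STOP and 13947 CPM in D19 B, but to 30428 CPM in D25 B. The cell cycle genes summed to 1345 CPM in STOP, with 779 CPM in D19 B and 1235 CPM in D9 B. The interferon genes summed to 2577 CPM in STOP and 1119 to 1622 CPM in these 3 libraries. Ifi27l2a had 1234 CPM (1181 to 1289) against 276 CPM (261 to 291), within the 787 to 1511 CPM of onset, and Ly6c2 33.8 CPM (25.6 to 43.9) against 14.6 CPM (11.4 to 18.3). Fn1 had 375 CPM (346 to 405) against 96.8 CPM (88.4 to 106). The 5 largest ratios upwards among genes with at least 200 CPM in either library were those of Fabp1, Slpi (log2 3.97), an inhibitor of leukocyte proteases, Ccl7 (2.90), a monocyte attractant, Plac8 (2.51) and F10 (2.23), the gene of coagulation factor X. Larger ratios were found below that level, as for the cytokine gene Il12b with 195 UMIs in STOP (118 CPM, 102 to 136) and 4 in D19 B. Fabp1, a hepatocyte gene, had 504 UMIs in STOP (305 CPM, 279 to 332) and 3 in D19 B (0.599 CPM, 0.124 to 1.75), and 8 of 11 hepatocyte markers had separate intervals with STOP higher. The same held for 8 of 11 dendritic cell markers, with summed levels of 543 CPM in STOP and 133 CPM in D19 B. Of 20 immediate early and heat shock genes, which also respond to dissociation, 12 lay higher and 5 lower in STOP. Hspa1a had 99.1 CPM (84.5 to 115) against 11.4 CPM (8.62 to 14.7) and Hspa1b 69.5 against 6.19 CPM, while the list summed to 9271 CPM in STOP and 9372 CPM in D19 B. The part of RNA from these other cells and of dissociation in the STOP values was not tested.

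**Figure D5:**
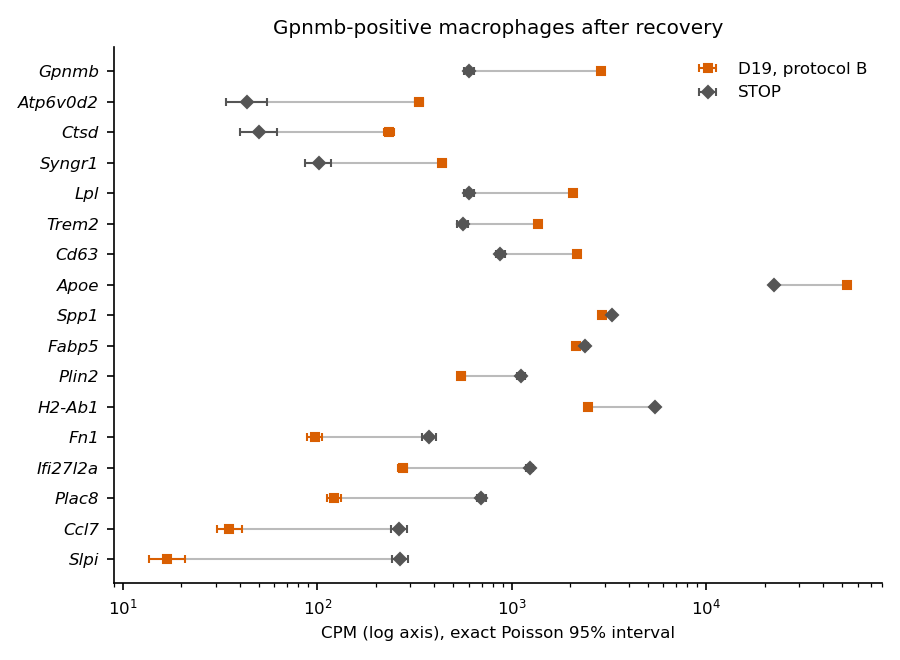
Level of 17 genes (y axis) in Gpnmb-positive macrophages of STOP (diamonds) and D19 B (squares), in CPM on a log axis (x axis), with exact Poisson 95% intervals. Atp6v0d2, Ctsd, Syngr1, Lpl, Trem2 and Apoe lie lower in STOP, and Plin2, Fn1, Ifi27l2a, Plac8, Ccl7 and Slpi higher.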

How the data were processed

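Livers of mice on DDC diet were profiled by droplet-based single-cell RNA sequencing (10x 3' chemistry). Per the labels, the authors mapped reads with kallisto to GRCm38 and deposited matrices of UMI counts per gene and barcode, not normalized, in which poly(A) capture restricts values to transcript 3' ends. The kallisto version is not given in the sources used here. Reads that fit several genes can be split or lost, and paralogs are uncertain.

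Barcodes with at least 1500 UMIs were taken as cells. No doublet caller was run, since the rule excludes Clec4f, Epcam and Cd3e UMIs, and doublets with other cells may remain. UMIs were summed per library over members, and over Gpnmb-zero and Kupffer-gate cells. Member cells and gene lists were chosen with earlier results of these data known.

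Libraries with at least 20 members entered edgeR 4.0.16 (R 4.3.3, quasi-likelihood test, TMM, filterByExpr, protocol and stage as terms, Benjamini-Hochberg adjustment). The difference in stage change was tested with library as a block. Standard errors were the log2 change over the root of F. Shares were compared by exact permutation within protocol. DESeq2 1.42.0, other thresholds, no filter and leaving out each library were alternatives. The edgeR fits of the stage change and of its difference were tested on simulated data. Named were list genes by smallest p, Trem2, and the 10 called genes with the largest change in each direction and a mean log2 CPM of at least 5 (5 in recovery, with at least 200 CPM), without predicted, mitochondrial, ribosomal and rule genes. Genes named from the comparisons within libraries were taken from the lists or by size (mean of at least 50 CPM in the higher group) after their values were seen. Libraries held 29307190 to 108602421 UMIs.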

Additional observations from a re-analysis of the deposited data

Results flagged for a closer look

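Of 134 groups of 4 or 6 libraries examined for a library far from the rest, 13 held one by Dixon's test, and chance alone marks about 1 group in 20. Among the onset libraries, D3 A was far below the others in Vsig4 (3.61 CPM) and Fn1 (49.2 CPM) and far above them in Plin2 (506 CPM). D3 B was far above the others in Spp1 (9020 CPM) and Lpl (2251 CPM). D5 B stood out in Marco (6.94 CPM) and S100a8 (135 CPM), and D5 A in Ccl22 (131 CPM), a chemokine gene. Among the progression libraries, D25 A was far above the others in Mmp12 (2074 CPM). D19 A stood out in Pf4 (1111 CPM), a platelet factor gene, and in Arg1 (252 CPM). D9 A stood out in Pdgfb (43.1 CPM), a growth factor gene, and in Hspa1a (249.9 CPM). The causes were not tested.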

How the results depend on the processing

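The count of 56 genes called between onset and progression moved with most settings, to 340 with DESeq2, 770 without a filter on low counts, 148 with at least 3 UMIs of Gpnmb, 120 with at least 20 UMIs of C1q, 2 with no protocol term, 24 with D9 put with onset, 7 in protocol A and 2 in protocol B alone. Leaving out 1 library gave 3 (D3 A), 4 (D25 A), 5 (D3 B), 11 (D5 A), 16 (D19 A), 21 (D9 B), 24 (D19 B), 84 (D25 B), 188 (D9 A) and 224 (D5 B) calls. All 56 were among those of DESeq2, and 20 were among the 59 called in cells without UMIs of other lineages. Of the genes named, Vsig4, Fabp7, Gpx3, Pmaip1, Ets1 and Mndal lost their call in these cells. Of the 24 calls with D9 put with onset 3 were among the 56, of the 7 in protocol A alone 0 and of the 2 in protocol B alone 2. The stage difference between members and Gpnmb-zero cells gave 0 calls, 45 without a filter and 2 in cells without UMIs of other lineages. The share difference of 9.48 points ranged from 3.05 (without D5 B) to 15.9 (without D3 B) points. For the 23 called genes named, all 499 values under alternatives kept their direction and 288 their call, and 9 of 1437 values of the 66 tested genes named changed sign. Spp1 (log2 0.07) had -0.18 with no protocol term and -0.80 in protocol B alone, and from -0.27 to 0.98 without 1 library. In the edgeR fit of protocol B alone Lpl had -0.00170, H2-Ab1 0.0042 and H2-Eb1 0.044. The causes were not tested. The settings with at least 20 C1q UMIs and without CT010467.1 were chosen after seeing the data. The D0 libraries held 6 and 7 members, so planned gene tests against steady state were not run. Beyond protocol as a term and library as a block, no paired analysis was possible because the labels give libraries of different stages no shared number.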
